A study of Mus musculus with 24 samples.

Results

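Mouse CD4 T cells in 2 states were compared. The first were 6 libraries titled effector, made after 5 days of TH1 differentiation and not stimulated again. The second were 6 libraries titled activated naive, made after 6 hours of stimulation, with no time of differentiation given. All were chosen by their titles and carry numbers 1 to 6 in both groups. Together they are 12 of the 24 RNA-seq libraries of the series. All cells had the genotype OT2Nur77GFP+/- on a C57/BL6 background, and carry the transgenes Tg(Nr4a1-EGFP/cre)820Khog and Tg(TcraTcrb)425Cbn from 2 crossed lines. The first transgene places green fluorescent protein and Cre under the Nr4a1 promoter, and the second gives most CD4 T cells a single receptor for an ovalbumin peptide, so the cells stand for one receptor and not for a normal repertoire. Spleens were the source of the naive cells, and all cells were sorted before RNA was taken. The labels do not name the stimulus of the activated naive cells or the cytokines of the differentiation. Neither separate animals nor separate cultures are stated for the 6 libraries of a group, so the p-values reflect only how these libraries differ among themselves, which may be technical.

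A naive CD4 T cell that meets its antigen switches on, within hours, a first wave of transcription factors, cytokines and growth genes while it has not yet divided. Over the following days it divides, builds a glycolytic metabolism and, under interleukin 12 and interferon-gamma, takes on the TH1 programme led by the transcription factor T-bet. A TH1 effector that no longer sees antigen is poised: it has opened its effector genes but transcribes many of them strongly only after a new stimulus.

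The 6 naive libraries of the series, from the same genotype, are quoted as a reference level with no test, and the 6 reactivated libraries entered only the shared estimate of the spread. Reads counted to genes numbered 20758549 to 32150758 per activated naive library and 20940635 to 33383234 per effector library. In the names of the deposited files, numbers 1 to 3 of each group share one code and numbers 4 to 6 another. This code was taken here as the sequencing run, so that each run holds both groups. The 12 CD4 T cell markers found in the files, Cd4, Cd3e and Lck among them, were summed in each library. They came to 5877 to 7068 CPM (counts scaled to a common library size) in activated naive and 4619 to 5031 CPM in effector libraries. Between the groups they had no common direction, with 4 passing as higher and 6 as lower in effectors. Cd8a and Cd8b1 together stayed at 4.66 to 7.50 and 4.21 to 6.42 CPM, while the receptor constant genes were not analysed here. Numbers 5 and 6 of the activated naive group stood apart in interferon-response genes, whose log2 CPM averaged 6.17 and 6.04 there against 4.20 to 4.68 in numbers 1 to 4. Number 6 of the same group also had more mitosis transcripts than the other 5, with a mean log2 CPM of 1.02 over the mitosis list against 0.0295 to 0.253. Results that rest on these libraries are given with and without them.

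The 2 states differed in most of what they transcribed. Of 12584 genes with enough counts to be tested, 10932 passed an adjusted p of 0.05 (86.9%, edgeR quasi-likelihood test with Benjamini-Hochberg adjustment), 5742 of them higher in effectors (45.6%) and 5190 lower (41.2%). A change of at least 2-fold was passed by 6117 genes (48.6%), of which 3831 were higher (30.4%) and 2286 lower (18.2%) in effectors. Differences of at least 10-fold were uneven: of 1739 genes (13.8%), 1501 were higher in effectors (11.9%) and the rest lower (1.89%). For 4781 genes all 6 effector libraries lay above all 6 activated naive libraries (38.0%), and for 4177 genes they lay below (33.2%). Among the genes that passed, 10034 had the same sign in each of the 6 same-numbered pairs. Fitted within numbers 1 to 3 alone 10568 genes passed, and within numbers 4 to 6 alone 10056, and 9397 were called the same way and 14 the opposite way in both. The log2 fold change (log2FC) is effector minus activated naive throughout. Its median over all tested genes was 0.07 with quartiles of -0.74 and 1.46, and the counts of each gene group stand against these shares. Sets of 3 CPM values are the lowest, the median and the highest of 6 libraries, and other levels are mean ± SD (n = 6). Where a gene is given an adjusted p under 0.05, its direction held in 6 of 6 same-numbered pairs unless another count is stated. Values within numbers 1 to 3 or 4 to 6, or without 1 number, follow a log2 fold change where they move it by more than 1.5-fold. In bulk RNA, fewer cells expressing a gene and less of its RNA per cell cannot be told apart.

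**Figure D1:**
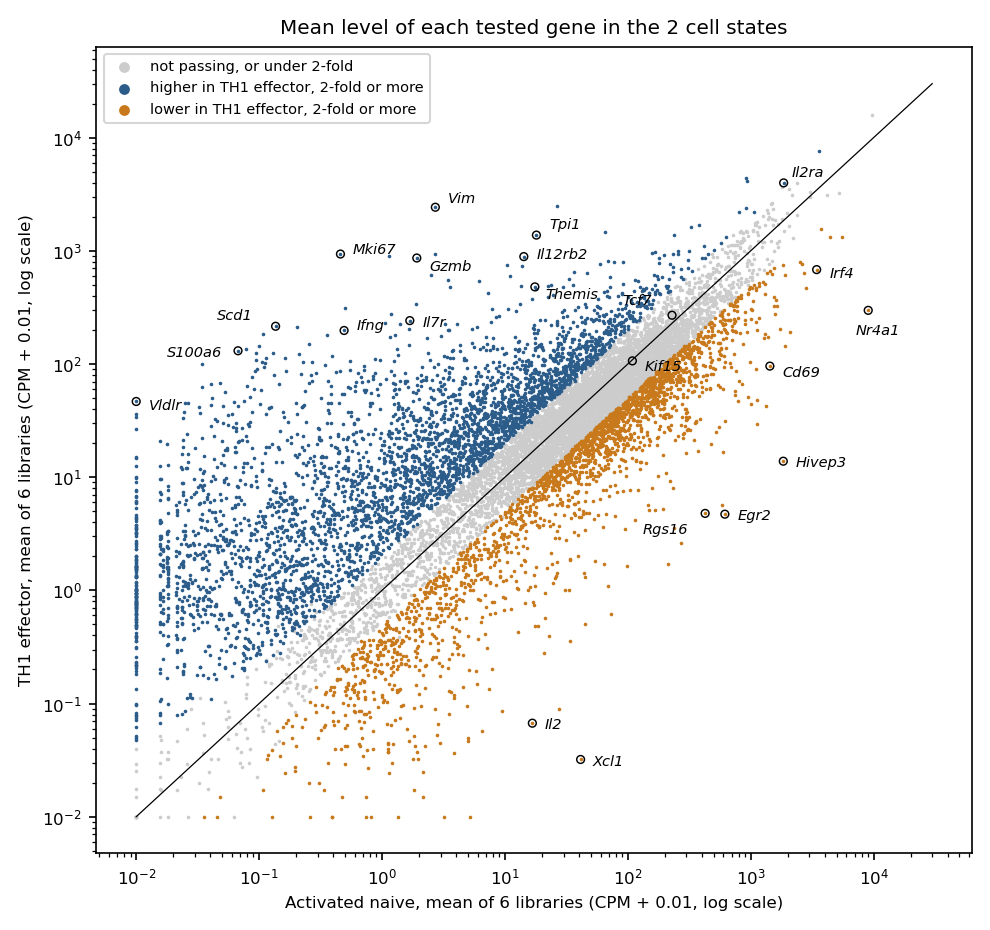
Mean level of each of the 12584 tested genes in the activated naive (horizontal, CPM + 0.01, log scale) and TH1 effector libraries (vertical, same scale), 6 libraries each, with 22 genes named. Blue points are at least 2-fold higher and orange points at least 2-fold lower in effectors with an adjusted p under 0.05; the blue cloud reaches much further from the diagonal than the orange one, with 1501 of the 1739 genes at 10-fold or more.

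The immediate-early genes, mostly transcription factors and early regulators that a T cell receptor signal induces quickly, were mostly higher in the activated naive cells. Of 26 such genes tested, 18 were at least 2-fold lower and 5 at least 2-fold higher in effectors, with a median log2 fold change of -1.57 (-1.63 in numbers 1 to 3 and -1.64 in numbers 4 to 6). Nr4a1, which encodes the orphan nuclear receptor Nur77 and whose promoter drives the reporter of these mice, was at 7143, 7689.6 and 12800.5 CPM in activated naive and 133, 296 and 498 CPM in effector libraries. It was 31.2-fold lower in effectors (log2FC -4.96, -5.78 within numbers 1 to 3, SE 0.30, adjusted p = 3.90e-08), and the groups lay far apart, although effector numbers 1 to 3 (133 to 180.3 CPM) were below numbers 4 to 6 (412 to 498 CPM). The naive libraries were at 434 ± 199 CPM. Nr4a3, a close relative, fell from 584 ± 245 to 5.63 ± 5.14 CPM (log2FC -6.86, -8.35 within numbers 1 to 3, -5.99 within numbers 4 to 6, adjusted p = 8.35e-11). Egr2, a zinc finger factor that restrains T cell activation, ran at 528, 556 and 805 CPM in activated naive and 2.01, 5.07 and 7.35 CPM in effector libraries, with no overlap (log2FC -7.02, SE 0.27, adjusted p = 3.41e-18). Its relative Egr3 fell from 98.1 ± 50.7 to 1.64 ± 0.410 CPM (log2FC -5.90, adjusted p = 1.10e-12). Irf4, which scales with receptor signal strength and sustains expansion, went from 3443 ± 517 to 683 ± 116 CPM (log2FC -2.35, adjusted p = 1.26e-16). Cd69, an early surface marker that holds cells in lymphoid tissue, fell from 1433 ± 208 to 95.8 ± 15.5 CPM (log2FC -3.90, adjusted p = 1.89e-16). The growth regulator Myc fell by a smaller step, from 1033 ± 171 to 466 ± 64.1 CPM (log2FC -1.15, adjusted p = 2.29e-10).

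A few members of the same list went the other way. Jun, a subunit of AP-1, was higher in effectors than after 6 hours of stimulation: 15.2, 18.8 and 21.3 against 112, 136 and 182 CPM (log2FC 2.94, SE 0.12, adjusted p = 5.16e-14), with all effector libraries above all activated naive ones. Naive libraries held more Jun than either, 549 ± 147 CPM. Batf, the AP-1 partner of IRF4, rose from 5.63 ± 1.41 to 30.1 ± 1.33 CPM (log2FC 2.42, adjusted p = 4.95e-15). Ier3, an early-response survival gene, rose from 1.62 ± 0.935 to 17.3 ± 2.38 CPM (log2FC 3.44, adjusted p = 1.26e-11). Junb did not pass, at 372 ± 44.6 and 331 ± 19.9 CPM (adjusted p = 0.219).

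Feedback regulators that damp receptor and cytokine signals went in both directions. Of 36 tested, 15 were at least 2-fold lower and 7 at least 2-fold higher in effectors (median -0.70). Rgs16, which switches off G protein signals, fell from 338, 439 and 502 to 3.71, 4.60 and 7.11 CPM (log2FC -6.47, SE 0.15, adjusted p = 8.61e-20). Spry1, a brake on the RAS pathway, fell from 550.3 ± 64.1 to 27.5 ± 9.14 CPM (log2FC -4.35, adjusted p = 3.65e-15). The MAP kinase phosphatase Dusp2 fell from 746 ± 108 to 57.5 ± 13.5 CPM (log2FC -3.71, adjusted p = 1.20e-16). Inhibitors of cytokine receptor signals were among those that rose: Socs2 from 0, 0.0544 and 0.882 CPM to 183, 206 and 269 CPM (log2FC 10.31, 12.45 within numbers 1 to 3, 9.32 within numbers 4 to 6, 11.89 without number 6, SE 0.73, adjusted p = 3.95e-17). Socs3 rose from 4.66 ± 1.26 to 108 ± 26.8 CPM (log2FC 4.54, adjusted p = 5.79e-18). The highest activated naive Socs2 value was in number 6. Socs1 stood at 87.6 ± 11.4 and 89.3 ± 9.46 CPM and did not pass (adjusted p = 0.833).

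**Figure D2:**
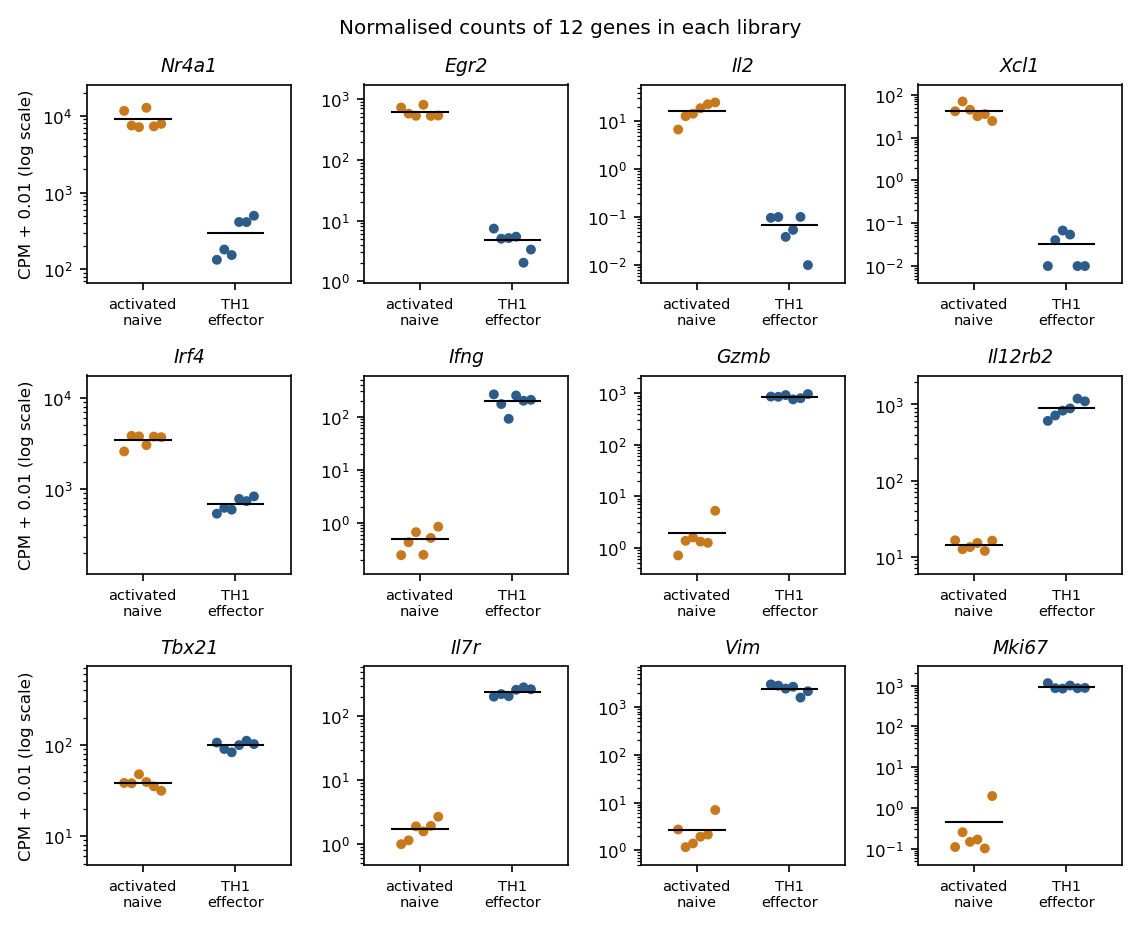
Normalised counts (CPM + 0.01, log scale) of 12 genes in the 6 activated naive and 6 TH1 effector libraries, each point 1 library in the order of numbers 1 to 6 and each bar the group mean. The groups do not overlap in any of the 12 panels; Nr4a1, Egr2, Il2, Xcl1 and Irf4 are lower and the other 7 are higher in effectors.

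TH1 genes were higher in the effectors, but not all of them. Of 32 tested genes of the TH1 programme, 23 were at least 2-fold higher and 4 at least 2-fold lower, with a median log2 fold change of 2.53 (2.81 in numbers 1 to 3 and 2.25 in numbers 4 to 6). Ifng, the cytokine that defines TH1 cells, was at 0.235, 0.463 and 0.833 CPM in activated naive and 91.2, 204 and 264 CPM in effector libraries, 419-fold higher (log2FC 8.71, SE 0.38, adjusted p = 2.45e-15). Tbx21, which encodes T-bet, moved less, from 31.5, 38.2 and 47.7 to 83.1, 101 and 111 CPM (log2FC 1.37, SE 0.11, adjusted p = 1.31e-11). Both genes separated the groups without overlap, yet activated naive cells already held Tbx21, which was at 0.116 ± 0.0702 CPM in naive libraries, while Ifng stayed under 1 CPM. Il12rb2, the inducible chain of the interleukin 12 receptor, rose from 11.9, 14.2 and 16.4 to 608, 859 and 1193 CPM (log2FC 5.94, SE 0.15, adjusted p = 1.03e-20). Il18r1, the receptor chain for interleukin 18, rose from 1.40 ± 0.522 to 226 ± 52.7 CPM (log2FC 7.36, adjusted p = 1.41e-16). Hlx, a homeobox partner of T-bet, had 3 counts over the 6 activated naive libraries and 14.1, 17.6 and 23.4 CPM in effectors, a ratio of 943 (95% counting interval 322 to 4576) with an adjusted p of 2.46e-20. Its fitted log2FC was 9.55, and 10.42 without number 2. Cxcr3, the receptor that leads TH1 cells to inflamed tissue, was lower in effectors: 38.3, 44.6 and 54.7 against 18.5, 22.2 and 30.4 CPM (log2FC -1.04, SE 0.15, adjusted p = 6.88e-08). Both ranges lay above the naive libraries (0.0736 ± 0.0323 CPM). The inflammatory cytokine Tnf also fell, from 303 ± 102 to 32.6 ± 3.25 CPM (log2FC -3.21, adjusted p = 8.12e-13). So did the chemokine Ccl4, from 15.9 ± 8.44 to 1.05 ± 0.260 CPM (log2FC -3.90, adjusted p = 7.79e-11). Irf1 and Zeb2 did not pass (adjusted p = 0.141 and 0.323).

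Cytotoxic granule genes also had members of either direction. Of 23 listed, 17 had enough counts, 8 were at least 2-fold higher and 3 at least 2-fold lower in effectors (median 0.70). Gzmb, the main granule protease, was at 0.705, 1.34 and 5.24 CPM in activated naive and 763, 862 and 968 CPM in effector libraries (log2FC 8.88, 9.54 within numbers 1 to 3, SE 0.39, adjusted p = 1.99e-14), so every effector library exceeded every activated naive one by more than 100-fold. Nkg7, a granule membrane protein needed for degranulation, rose from 0.945 ± 0.551 to 107 ± 27.1 CPM (log2FC 6.85, adjusted p = 4.52e-17). The protease Ctsw rose from 3.92 ± 1.03 to 48.1 ± 8.20 CPM (log2FC 3.61, adjusted p = 4.66e-17). Prf1, the pore-forming perforin, was lower in effectors, from 10.1 ± 1.805 to 4.88 ± 1.14 CPM (log2FC -1.04, adjusted p = 6.83e-04). Naive libraries held 24.96 ± 9.42 CPM of it. Srgn, the proteoglycan that packs granules, fell from 1890.3 ± 315 to 608 ± 179 CPM (log2FC -1.66, adjusted p = 3.57e-15). Markers of NK and innate cells moved with these genes: they summed to 0.168 to 4.02 CPM in activated naive and 33.2 to 55.9 CPM in effector libraries. Of 7 such markers 3 had enough counts and 2 rose, the receptors Klrk1 and Klrd1. The defining marker Ncr1 had 0 counts in activated naive and 1 count over the 6 effector libraries, and Klrb1c had 1 and 3. The part of other cells in the granule genes was not tested.

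Among cytokines and chemokines, 17 of 39 tested genes were at least 2-fold higher and 11 at least 2-fold lower in effectors. The median log2FC of this list was 1.04, but 0.63 within numbers 1 to 3, 0.0053 within numbers 4 to 6, 0.41 by limma-voom and 0.48 to 1.16 with 1 number left out. Il2, the T cell growth factor of the first hours, was at 6.75, 16.6 and 24.8 CPM in activated naive and 0, 0.0657 and 0.0912 CPM in effector libraries (log2FC -7.93, -7.24 within numbers 1 to 3, -8.81 within numbers 4 to 6, SE 0.49, adjusted p = 2.45e-11), with no counts at all in effector number 6. Xcl1, a chemokine for cross-presenting dendritic cells, fell from 24.5, 38.5 and 70.0 to 0, 0.0152 and 0.0577 CPM (log2FC -10.55, SE 0.44, adjusted p = 1.06e-18). Cytokines of other helper fates were found in the TH1 cells: Il21, known from follicular helper cells, rose from 0.260 ± 0.150 to 70.6 ± 27.5 CPM (log2FC 8.04, adjusted p = 1.05e-11). The regulatory cytokine Il10 rose from 0.133 ± 0.100 to 18.5 ± 7.47 CPM (log2FC 7.07, adjusted p = 8.63e-08). The 2 regulatory T cell markers summed to 4.02 to 6.36 CPM in activated naive and 10.9 to 38.6 CPM in effector libraries. Ikzf2 rose from 4.23 ± 0.825 to 21.8 ± 9.63 CPM (log2FC 2.34, 1.73 within numbers 1 to 3, adjusted p = 1.53e-09), and the defining factor Foxp3 fell from 1.02 ± 0.449 to 0.392 ± 0.268 CPM (log2FC -1.32, adjusted p = 0.00182). Their part in the Il10 value was not tested. Ebi3, a chain of interleukins 27 and 35, had 2 counts in the activated naive group and 18.6 ± 2.24 CPM in effectors, a ratio of 1451 (95% counting interval 401 to 11988) and an adjusted p of 9.59e-19. Il23r, the receptor of TH17 cells, had no counts in the activated naive group and 4.38, 10.3 and 15.5 CPM in effectors, at least 519.6-fold higher against a floor of 3 counts over 6 libraries (adjusted p = 3.10e-12). Of 24 tested genes of other helper fates, 10 were at least 2-fold higher and 10 at least 2-fold lower. Tox2, a nuclear factor of follicular helper cells, was among those that fell, from 9.42 ± 2.05 to 0.0767 ± 0.0598 CPM (log2FC -6.82, -7.53 within numbers 4 to 6, adjusted p = 5.98e-17).

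The set of cytokine receptors differed between the states. Of 31 tested, 16 were at least 2-fold higher and 8 at least 2-fold lower in effectors (median 1.10). Il7r, the receptor for the survival cytokine interleukin 7, was at 0.973, 1.71 and 2.65 CPM in activated naive and 204, 242.9 and 286 CPM in effector libraries (log2FC 7.197, SE 0.18, adjusted p = 2.00e-21). Naive libraries stood at 419.6 ± 87.9 CPM, so among these 3 states the transcript was low at 6 hours only. Il2ra, the high-affinity chain for interleukin 2, was high in both states and rose further, from 1757, 1851 and 1996 to 3689, 3947 and 4395 CPM (log2FC 1.10, SE 0.04, adjusted p = 1.49e-14). The signalling chain for interleukin 6, Il6st, fell from 295 ± 48.2 to 40.2 ± 7.8003 CPM (log2FC -2.88, adjusted p = 1.40e-18). Its partner Il6ra fell from 39.7 ± 8.05 to 10.4 ± 1.73 CPM (log2FC -1.93, adjusted p = 3.02e-13). Tgfbr2 and Tnfrsf1a did not pass (adjusted p = 0.301 and 0.481).

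Costimulatory and inhibitory receptors had no common direction, with 13 of 32 tested genes at least 2-fold higher and 8 at least 2-fold lower (median 0.28). Pdcd1, the inhibitory receptor PD-1, was higher in the freshly activated cells: 113, 184 and 365 against 7.01, 7.95 and 13.96 CPM in effectors (log2FC -4.56, SE 0.36, adjusted p = 7.66e-12). Its ligand Cd274 fell from 842 ± 156 to 66.8 ± 20.4 CPM (log2FC -3.69, adjusted p = 7.33e-14). The costimulator Cd27 fell from 799.9 ± 69.8 to 70.6 ± 9.61 CPM (log2FC -3.50, adjusted p = 2.01e-22). Tnfrsf8, the receptor CD30, was almost absent at 6 hours, 0, 0.0544 and 0.196 CPM, and reached 70.5, 147 and 178 CPM in effectors (log2FC 10.96, SE 0.51, adjusted p = 4.23e-15). Entpd1, the ectonucleotidase CD39, rose from 0.0254 ± 0.0430 to 11.3 ± 1.87 CPM (log2FC 8.56, 9.81 without number 3, adjusted p = 4.51e-17). Cd28 was measured at 664 ± 221 and 735 ± 164.2 CPM, and did not pass (adjusted p = 0.457).

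Homing and adhesion genes were more often higher in effectors: 20 of 37 tested at 2-fold or more, against 6 lower (median 1.28); without numbers 5 and 6 the counts were 20 and 3. The chemokine receptor Ccr2, for monocyte chemokines, rose from 0.192 ± 0.245 to 14.96 ± 3.15 CPM (log2FC 6.43, 8.52 within numbers 1 to 3, 5.51 within numbers 4 to 6, 7.09 without number 6, adjusted p = 1.28e-13). The gut-homing receptor Ccr9 fell from 5.05 ± 1.21 to 0.0394 ± 0.0291 CPM (log2FC -6.95, -7.59 within numbers 1 to 3, adjusted p = 1.63e-17) and had 87.8 ± 14.3 CPM in naive libraries. Ccr8, a receptor of skin-homing T cells, fell from 72.9 ± 15.5 to 0.610 ± 0.215 CPM (log2FC -6.93, adjusted p = 1.91e-20). Cd44, the adhesion receptor used as a marker of experienced T cells, rose from 44.1 ± 3.90 to 141 ± 21.0 CPM (log2FC 1.66, adjusted p = 4.78e-18).

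Genes of the naive and quiescent state were of several kinds: of 37 tested, 15 were at least 2-fold higher and 9 at least 2-fold lower in effectors (median 0.56). Igfbp4, a secreted protein of naive T cells, rose from 1.66 ± 1.47 to 203 ± 72.9 CPM (log2FC 6.97, 6.36 within numbers 4 to 6, adjusted p = 6.11e-13), with 153 ± 39.4 CPM in naive libraries. Bach2, a repressor of effector genes, fell from 604 ± 70.6 to 117 ± 33.0 CPM (log2FC -2.40, adjusted p = 4.95e-14). The antiproliferative gene Btg2 fell from 298 ± 127 to 40.1 ± 3.63 CPM (log2FC -2.89, adjusted p = 1.22e-09). Tcf7, the factor TCF1 of naive and memory cells, did not pass, with 105, 166.1 and 465 CPM in activated naive and 205, 256 and 415 CPM in effector libraries (log2FC 0.23, SE 0.40, adjusted p = 0.442). Both ranges lay far under the naive libraries (2355 ± 162.9 CPM), and the activated naive libraries spread widely among themselves. Ccr7, the receptor that brings T cells into lymph nodes, spread even more in activated naive libraries: 72.1 and 77.2 CPM in numbers 1 and 4, 455 and 435 CPM in numbers 2 and 5, and 770.1 and 735 CPM in numbers 3 and 6. Effector libraries held 157.1, 202 and 307 CPM, so the groups overlapped and 2 of 6 numbers were higher in effectors. Its adjusted p of 0.0344 did not hold without number 2, 3, 5 or 6, within either run, by limma-voom (0.33), with the 2 groups only (0.119), with scaling by library size alone (0.0634) or with the replicate number as a block (0.0685). The summed costimulatory and inhibitory receptors matched in the same way in activated naive libraries. They had 8043 and 8353 CPM in numbers 1 and 4, 7485 and 7429 in 2 and 5, and 6687 and 6614 in 3 and 6. The interferon-response list did not follow this order. What the order stands for was not tested, so numbers 1 to 3 and 4 to 6 may not be independent of each other.

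Cell division genes had the highest median of the 34 gene lists. Of 58 mitosis genes tested, 54 were at least 2-fold higher in effectors and 0 lower, with a median log2 fold change of 5.86 (5.96 in numbers 1 to 3 and 5.92 in numbers 4 to 6). The count was also 54 without number 6. All 49 tested genes of DNA replication passed as higher, 46 of them at 2-fold or more (median 2.54). Mki67, the proliferation antigen Ki-67, was at 0.0922, 0.149 and 1.96 CPM in activated naive and 847, 874 and 1155 CPM in effector libraries (log2FC 11.20, 12.55 within numbers 1 to 3, 10.32 within numbers 4 to 6, 12.61 without number 6, SE 0.65, adjusted p = 6.54e-17). The highest activated naive value was that of number 6, and the other 5 were below 0.25 CPM. Bub1, a kinase of the spindle checkpoint, had 0, 0 and 0.147 against 59.4, 65.2 and 76.0 CPM (log2FC 11.09, 12.09 within numbers 1 to 3, 10.33 within numbers 4 to 6, 12.43 without number 6, SE 0.56, adjusted p = 8.21e-21). Cenpf, a kinetochore protein, had 0.0336, 0.0576 and 0.245 against 104, 120.2 and 162.7 CPM (log2FC 10.59, 11.44 within numbers 1 to 3, 9.82 within numbers 4 to 6, SE 0.37, adjusted p = 2.11e-22). The naive libraries had 0.885 ± 0.193 CPM of Mki67, more than 5 of the 6 activated naive libraries. Pcna, the sliding clamp of replication, was already at a high level at 6 hours and rose less, from 267 ± 23.04 to 477 ± 42.8 CPM (log2FC 0.84, adjusted p = 1.39e-12). The licensing factor Cdt1 rose from 48.8 ± 3.73 to 83.0 ± 8.57 CPM (log2FC 0.77, adjusted p = 3.86e-11). Kif15, a spindle motor, was the 1 mitosis gene that did not pass, at 109 ± 19.2 and 107 ± 10.3 CPM (adjusted p = 0.801), against 0.374 ± 0.167 CPM in naive libraries. Bub3, a checkpoint partner of Bub1, rose by 1.20-fold (log2FC 0.27, adjusted p = 4.77e-04).

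Transcripts of ribosome production genes ran the opposite way. Of 51 tested genes that make and assemble ribosomes, 45 were at least 2-fold lower and 0 at least 2-fold higher in effectors, with a median of -1.75 (-1.73 in numbers 1 to 3 and -1.82 in numbers 4 to 6). For 50 genes all effector libraries lay below all activated naive ones. Grwd1, a chaperone of a ribosomal protein, was at 225, 239.1 and 269 CPM in activated naive and 16.7, 22.3 and 24.01 CPM in effector libraries (log2FC -3.51, SE 0.06, adjusted p = 4.60e-23). Utp20, a subunit of the small-subunit processome, was at 526, 588 and 669 against 56.6, 58.8 and 68.6 CPM (log2FC -3.30, SE 0.07, adjusted p = 1.84e-22). Noc3l, of the large-subunit assembly pathway, was at 187, 221 and 256 against 24.6, 25.5 and 28.0 CPM (log2FC -3.09, SE 0.08, adjusted p = 1.50e-22). Effector levels of all 3 were at or below those of the naive libraries, 23.8 ± 2.75, 100.4 ± 7.82 and 40.4 ± 1.99 CPM. Npm1, the nucleolar chaperone nucleophosmin, fell by 1.25-fold only (log2FC -0.32, adjusted p = 5.89e-06). The 1 gene of the list that passed as higher was Ubtf, the RNA polymerase I factor UBF (1.18-fold, adjusted p = 0.00105), and it did not pass within numbers 1 to 3 (adjusted p = 0.0567). The proteins of the finished cytosolic ribosome were not lower: 70 of 78 passed as higher and 2 as lower, mostly by less than 2-fold (median 0.52). Rpl39 had the largest rise among them, from 234.8 ± 32.8 to 645 ± 92.0 CPM (log2FC 1.46, adjusted p = 2.89e-15).

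Because the mitosis and the ribosome production genes moved as blocks in opposite directions, the 150 bases before the RefSeq start site (build GRCm38.p6) are shown for the 3 genes of each list described above. All 6 genes are read from the minus strand, and the windows lie at chr7:135716380-135716529, chr2:127831860-127832009, chr1:189688087-189688236, chr7:45830790-45830939, chr10:88826815-88826964 and chr19:38819238-38819387, in the order printed. Each runs 5′ to 3′ toward the gene, and capitals mark matches on either strand to 3 motifs. These are CCAAT, the box bound by NF-Y, TTTGAA, an element known from cell cycle promoters, and CGGAAG, the core bound by ETS factors.
Mki67: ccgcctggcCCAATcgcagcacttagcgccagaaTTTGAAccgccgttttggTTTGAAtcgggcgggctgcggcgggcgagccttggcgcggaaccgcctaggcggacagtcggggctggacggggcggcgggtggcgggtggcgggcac
Bub1: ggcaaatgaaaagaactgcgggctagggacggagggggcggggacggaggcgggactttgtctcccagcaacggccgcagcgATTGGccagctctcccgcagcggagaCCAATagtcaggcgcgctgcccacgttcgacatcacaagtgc
Cenpf: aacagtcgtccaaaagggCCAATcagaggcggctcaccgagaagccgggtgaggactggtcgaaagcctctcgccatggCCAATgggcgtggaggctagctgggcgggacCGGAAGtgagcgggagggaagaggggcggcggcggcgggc
Grwd1: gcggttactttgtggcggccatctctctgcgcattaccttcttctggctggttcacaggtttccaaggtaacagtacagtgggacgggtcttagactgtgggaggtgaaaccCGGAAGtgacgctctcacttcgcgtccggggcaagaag
Utp20: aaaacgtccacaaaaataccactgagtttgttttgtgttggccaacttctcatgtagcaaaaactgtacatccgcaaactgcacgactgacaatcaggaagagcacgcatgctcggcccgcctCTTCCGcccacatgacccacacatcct
Noc3l: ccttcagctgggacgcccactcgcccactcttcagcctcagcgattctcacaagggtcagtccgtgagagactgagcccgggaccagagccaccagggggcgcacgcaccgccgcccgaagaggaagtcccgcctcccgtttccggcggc

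Mki67 has 1 match to CCAAT and 2 to TTTGAA, Bub1 has 2 to CCAAT, and Cenpf has 2 to CCAAT and 1 to CGGAAG. Grwd1 and Utp20 have 1 match to CGGAAG each and none to the other 2 motifs, and Noc3l has none. No matches overlap in these windows, and both strands were searched. Over the mitosis list, with RefSeq windows for 50 of its genes, 66% of 53 windows hold CCAAT and 34% hold TTTGAA, against 27.2% and 5.33% of the 11905 windows of all tested genes and 24.5% and 9.07% of all 32851 windows. In the 45 windows of the replication genes the shares are 48.9% and 8.89%, and in the 55 windows of the ribosome production genes 18.2% and 1.82%. TTTGGCGC or TTTCGCGC, forms of the E2F site, is in 5 replication windows (11.1%) and 3 mitosis windows (5.66%). It is in 0 ribosome production windows and in 0.823% of those of all tested genes. CGGAAG is in 24.5% of the mitosis windows, 30.9% of the ribosome production windows and 19.7% of those of all tested genes. CACGTG, the E-box that MYC can bind, is in 7.27% of the ribosome production windows and 6.02% of those of all tested genes. These are matches of letters in a window, not sites shown to be bound.

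**Figure D3:**
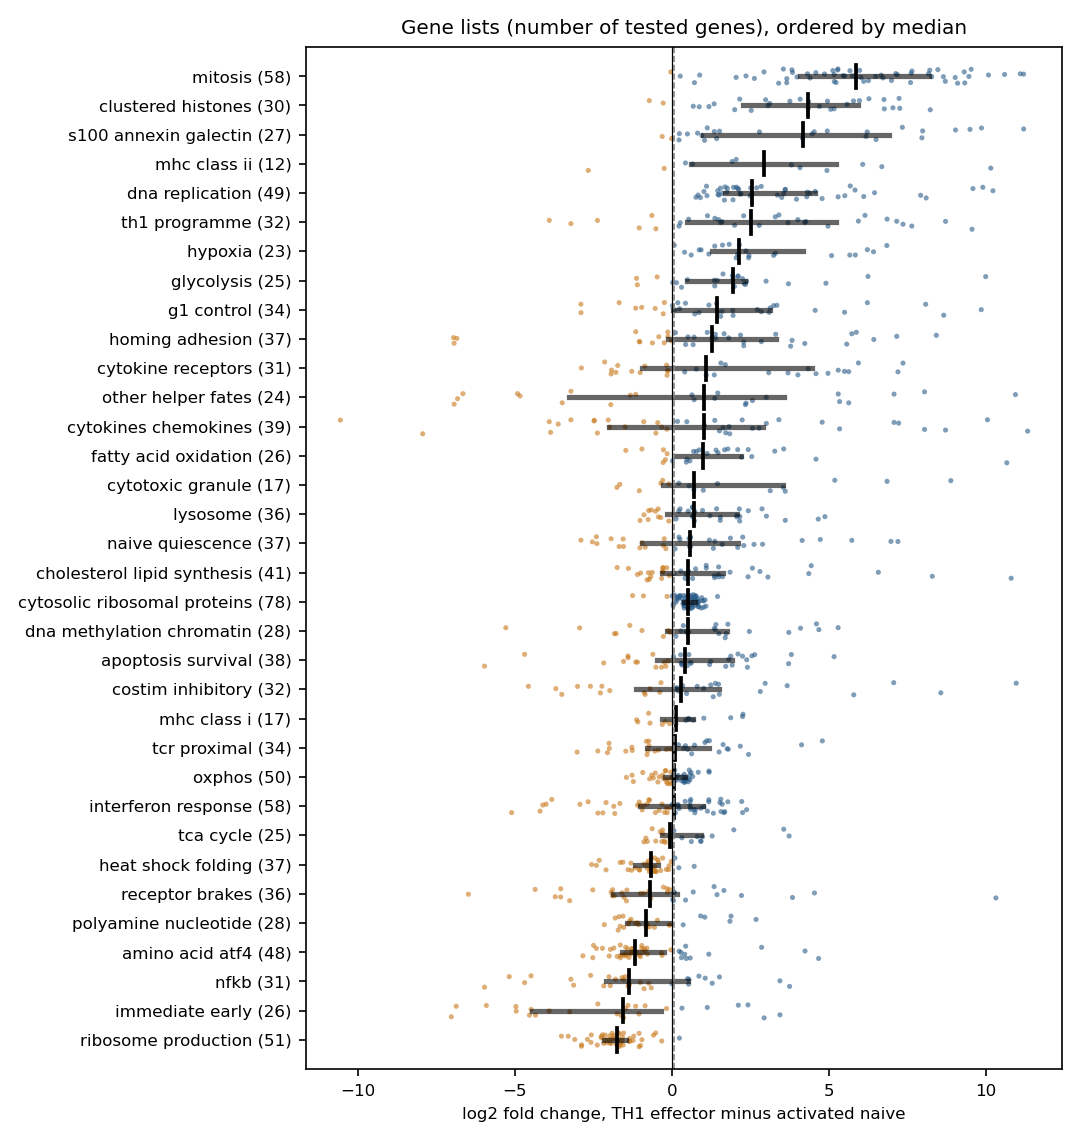
log2 fold change, TH1 effector minus activated naive, of every tested gene (points) in 34 gene lists, with the number of tested genes in brackets. Black ticks are medians, thick bars the quartiles and the dashed line the median of all 12584 tested genes (0.07); ribosome production lies lowest (median -1.75) and mitosis highest (median 5.86).

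Genes that set the entry into the cycle fell in between, with 19 of 34 tested at least 2-fold higher and 4 at least 2-fold lower (median 1.44). The activator E2f2 rose from 0.152 ± 0.181 to 112 ± 13.5 CPM (log2FC 9.58, 10.17 without number 6, adjusted p = 5.88e-21). The kinase Cdk4 did not pass, at 287 ± 24.9 and 290.2 ± 25.4 CPM (adjusted p = 0.739). Mycn, a relative of Myc that is silent in most resting lymphocytes, rose from 0.0527 ± 0.0730 to 46.3 ± 13.1 CPM (log2FC 9.85, 11.45 within numbers 1 to 3, 9.02 within numbers 4 to 6, 10.63 without number 6, adjusted p = 1.03e-17). The MYC antagonist Mxi1 rose from 2.31 ± 0.446 to 171 ± 28.3 CPM (log2FC 6.22, adjusted p = 1.46e-21). Of the replication-linked histone genes, whose messages mostly lack a poly(A) tail, 30 of 42 could be tested. Of these 25 were at least 2-fold higher in effectors and 0 lower (median 4.35). Within numbers 1 to 3 the counts were 31 of 35 (median 5.81), and within numbers 4 to 6 they were 17 of 21 (median 2.87). Chromatin regulators divided again: Uhrf1, which carries DNA methylation through replication, rose from 7.06, 7.44 and 10.4 to 285, 301 and 349.7 CPM (log2FC 5.29, SE 0.09, adjusted p = 1.58e-24). The de novo methyltransferase Dnmt3a fell from 467 ± 60.2 to 61.1 ± 4.42 CPM (log2FC -2.93, adjusted p = 1.05e-22). The histone demethylase Kdm6b fell from 1134 ± 313 to 29.4 ± 10.3 CPM (log2FC -5.28, adjusted p = 3.42e-15).

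Transcripts of glycolysis genes were mostly higher in effectors. Of 25 tested genes, 18 were at least 2-fold higher and 2 at least 2-fold lower (median 1.95, 2.18 in numbers 1 to 3 and 1.77 in numbers 4 to 6). Aldoc, an aldolase, rose from 0, 0.0430 and 0.245 to 48.3, 108 and 141 CPM (log2FC 9.99, SE 0.71, adjusted p = 1.16e-15). The lactate exporter Slc16a3 rose from 8.52 ± 1.11 to 261 ± 87.7 CPM (log2FC 4.90, adjusted p = 2.39e-14). The other transporter Slc16a1 fell from 223 ± 12.6 to 104 ± 8.80 CPM (log2FC -1.10, adjusted p = 6.99e-15). Tpi1, triosephosphate isomerase, was counted at 12.8, 18.4 and 21.7 and 962, 1417 and 1679 CPM (log2FC 6.24, SE 0.15, adjusted p = 4.60e-22). That value is uncertain because processed copies and an overlapping gene share its sequence. Targets of hypoxia factors went with glycolysis: 18 of 23 tested were at least 2-fold higher and 0 lower (median 2.15). The oxygen sensor Egln3 rose from 4.56, 5.55 and 8.32 to 238.05, 563 and 819.8 CPM (log2FC 6.42, SE 0.29, adjusted p = 6.12e-15). The collagen hydroxylase P4ha2 rose from 0.535 ± 0.195 to 61.5 ± 25.2 CPM (log2FC 6.84, 6.24 within numbers 4 to 6, adjusted p = 3.68e-16). Effector libraries differed in this list, where log2 CPM averaged 6.21 and 6.53 for numbers 5 and 6 against 6.86 to 7.23 for the others. All were above the activated naive range of 3.93 to 4.16.

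Mitochondrial genes changed little by comparison. Of 50 tested genes of oxidative phosphorylation, 23 passed as higher and 17 as lower, 2 and 3 of them at 2-fold or more (median 0.08). Within this list Cox8a, of complex IV, rose from 66.1 ± 10.8 to 151 ± 19.6 CPM (log2FC 1.19, adjusted p = 1.22e-12). Atp5g1, of the ATP synthase, fell from 143 ± 7.52 to 52.4 ± 3.02 CPM (log2FC -1.45, adjusted p = 6.63e-19). Of 25 tested genes of the citric acid cycle, 10 passed as higher and 11 as lower. The sign of their median (-0.05) flipped to 0.087 when libraries were scaled by size alone and to 0.026 with genes of at least 10 CPM. The pyruvate carboxylase gene Pcx rose from 3.24 ± 0.420 to 38.9 ± 15.4 CPM (log2FC 3.56, adjusted p = 6.90e-15). Ogdh, of the oxoglutarate dehydrogenase complex, fell from 296 ± 28.4 to 160.1 ± 8.34 CPM (log2FC -0.89, adjusted p = 1.42e-13). Genes of fatty acid oxidation leaned toward effectors, with 13 of 26 at least 2-fold higher and 1 lower (median 0.999). Acadl, which oxidises long-chain acyl-CoA, rose from 9.87, 13.1 and 13.9 to 257, 297 and 315 CPM (log2FC 4.59, SE 0.09, adjusted p = 1.35e-22). Pparg, a lipid-sensing nuclear receptor, had no counts at 6 hours and 3.92, 7.15 and 11.5 CPM in effectors, at least 391-fold higher (adjusted p = 1.88e-11).

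In lipid synthesis the desaturases stood out. Scd1, which makes monounsaturated fatty acids, was at 0, 0.0723 and 0.441 CPM in activated naive and 149, 223 and 258 CPM in effector libraries (log2FC 10.80, 11.60 without number 6, SE 0.66, adjusted p = 3.77e-19). Scd2 rose from 26.4 ± 13.98 to 2509.9 ± 191 CPM (log2FC 6.57, adjusted p = 4.25e-15). Fads2, another desaturase, rose from 0.253 ± 0.176 to 80.4 ± 10.4 CPM (log2FC 8.29, adjusted p = 3.73e-21). Fasn, the fatty acid synthase upstream of them, was lower in effectors, from 1059 ± 111 to 496 ± 53.9 CPM (log2FC -1.09, adjusted p = 8.79e-13). The sterol sensor Scap fell from 236.6 ± 10.1 to 90.8 ± 2.10 CPM (log2FC -1.38, adjusted p = 9.73e-19). Over all 41 tested genes of cholesterol and lipid synthesis, 18 were at least 2-fold higher and 3 at least 2-fold lower (median 0.53).

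Genes that supply amino acids and nucleotides were, like those of ribosome production, mostly higher in the activated naive cells. Of 48 tested genes of amino acid transport, synthesis and the ATF4 response, 27 were at least 2-fold lower and 4 at least 2-fold higher in effectors (median -1.18, -1.16 in numbers 1 to 3 and -1.16 in numbers 4 to 6). Slc7a1, the arginine carrier, fell from 1175, 1309.5 and 1504 to 155, 186 and 235.3 CPM (log2FC -2.83, SE 0.10, adjusted p = 1.60e-20). The glutamine carrier Slc1a5 fell from 1569.5 ± 204 to 275 ± 44.0 CPM (log2FC -2.51, adjusted p = 1.12e-19). Asns, asparagine synthetase, rose from 10.6 ± 3.16 to 76.0 ± 10.6 CPM (log2FC 2.86, adjusted p = 3.15e-12). Of 28 polyamine and nucleotide genes, 13 were at least 2-fold lower and 4 at least 2-fold higher (median -0.82). Srm, spermidine synthase, fell from 344 ± 25.3 to 77.8 ± 10.9 CPM (log2FC -2.15, adjusted p = 1.54e-19). Cad, which starts pyrimidine synthesis, fell from 455 ± 57.1 to 139 ± 15.5 CPM (log2FC -1.71, adjusted p = 2.90e-17). Chaperones leaned the same way: 31 of 37 passed as lower, 12 of them at 2-fold or more, and 2 as higher (median -0.66). Hsph1, a nucleotide exchange factor of HSP70, fell from 490.5 ± 119 to 92.9 ± 12.5 CPM (log2FC -2.40, adjusted p = 1.75e-14). The constitutive chaperone Hspa8 did not pass, at 3053 ± 748 and 3018 ± 116 CPM (adjusted p = 0.878).

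NF-kB targets were mostly lower in effectors, 18 of 31 at 2-fold or more against 5 higher (median -1.38). Nfkbid, a nuclear regulator of NF-kB, fell from 412, 477 and 918 to 14.9, 16.7 and 18.2 CPM (log2FC -5.17, SE 0.23, adjusted p = 1.26e-14). The survival gene Bcl2a1d fell from 68.8 ± 5.88 to 1.08 ± 0.519 CPM (log2FC -5.96, adjusted p = 1.32e-17), though near-identical copies share its reads. Bcl3, a partner of NF-kB p50 and p52, rose from 5.85 ± 2.57 to 78.0 ± 5.26 CPM (log2FC 3.75, adjusted p = 1.36e-14). The lymphotoxin gene Ltb rose from 149 ± 42.7 to 426 ± 32.1 CPM (log2FC 1.52, adjusted p = 7.41e-11). Survival and death genes were mixed, with 15 of 38 at least 2-fold higher and 8 lower. Pim2, a survival kinase under cytokine control, rose from 9.91, 13.05 and 17.1 to 457, 479 and 562 CPM (log2FC 5.16, SE 0.13, adjusted p = 1.75e-20). The death-promoting BH3-only gene Pmaip1 rose from 7.10 ± 1.87 to 98.1 ± 17.7 CPM (log2FC 3.80, adjusted p = 1.24e-21). Bad, of the same kind, rose from 1.16 ± 0.157 to 15.2 ± 1.28 CPM (log2FC 3.72, adjusted p = 1.19e-20). Cflar, which blocks death receptor signals, fell from 471 ± 47.2 to 105 ± 10.1 CPM (log2FC -2.17, adjusted p = 1.31e-21).

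Interferon-response genes depended on the libraries. With all 12 libraries, 15 of 58 tested genes were at least 2-fold higher and 15 at least 2-fold lower in effectors, with a median of 0.06. Within numbers 1 to 3 the counts were 21 and 10 with a median of 0.64, and within numbers 4 to 6 they were 8 and 17 with a median of -0.34. Without numbers 5 and 6, 21 were higher and 12 lower (median 0.53), so the sign of the median depended on which libraries were used. Oas2, an antiviral sensor induced by type I interferon, was at 3.93 to 8.32 CPM in activated naive numbers 1 to 4 and at 42.9 and 35.0 CPM in numbers 5 and 6. Effector libraries had 0.443, 0.643 and 1.32 CPM, below all of these (log2FC -4.19, -2.86 within numbers 1 to 3, -5.18 within numbers 4 to 6, SE 0.58, adjusted p = 3.13e-07), and naive libraries 143 ± 20.8 CPM. Oasl1, also interferon-induced, fell from 18.5 ± 17.1 to 0.479 ± 0.216 CPM (log2FC -5.10, -4.20 within numbers 1 to 3, -5.71 within numbers 4 to 6, adjusted p = 9.35e-09). Rtp4, another such gene, fell from 39.1 ± 36.4 to 1.98 ± 1.26 CPM (log2FC -4.11, -3.35 within numbers 1 to 3, adjusted p = 5.90e-08). Some GTPases that interferon-gamma induces went the other way: Igtp rose from 139, 166.7 and 288 to 771, 893 and 1101 CPM (log2FC 2.25, SE 0.16, adjusted p = 4.90e-11). Gbp3 rose from 21.3 ± 5.82 to 109 ± 11.1 CPM (log2FC 2.38, adjusted p = 7.46e-14). Gbp5 rose from 58.1 ± 27.4 to 266 ± 46.8 CPM (log2FC 2.22, adjusted p = 4.35e-09). Split after these values were seen, 12 GTPase genes picked from the list had 7 members at least 2-fold higher and 0 lower. Over all tested genes these shares were 30.4% and 18.2%. In 8 of the 12 genes all effector libraries lay above all activated naive ones, as in 38.0% of all tested genes. The other 46 genes of the list had 8 higher and 15 lower. They include Ifi47, also an interferon-induced GTPase, which was among the members of the list that moved least. These counts use all libraries, numbers 5 and 6 included. For Igtp, Gbp3, Gbp5, Oas2, Oasl1 and Rtp4 the direction held within numbers 1 to 3, within numbers 4 to 6 and without numbers 5 and 6.

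**Figure D4:**
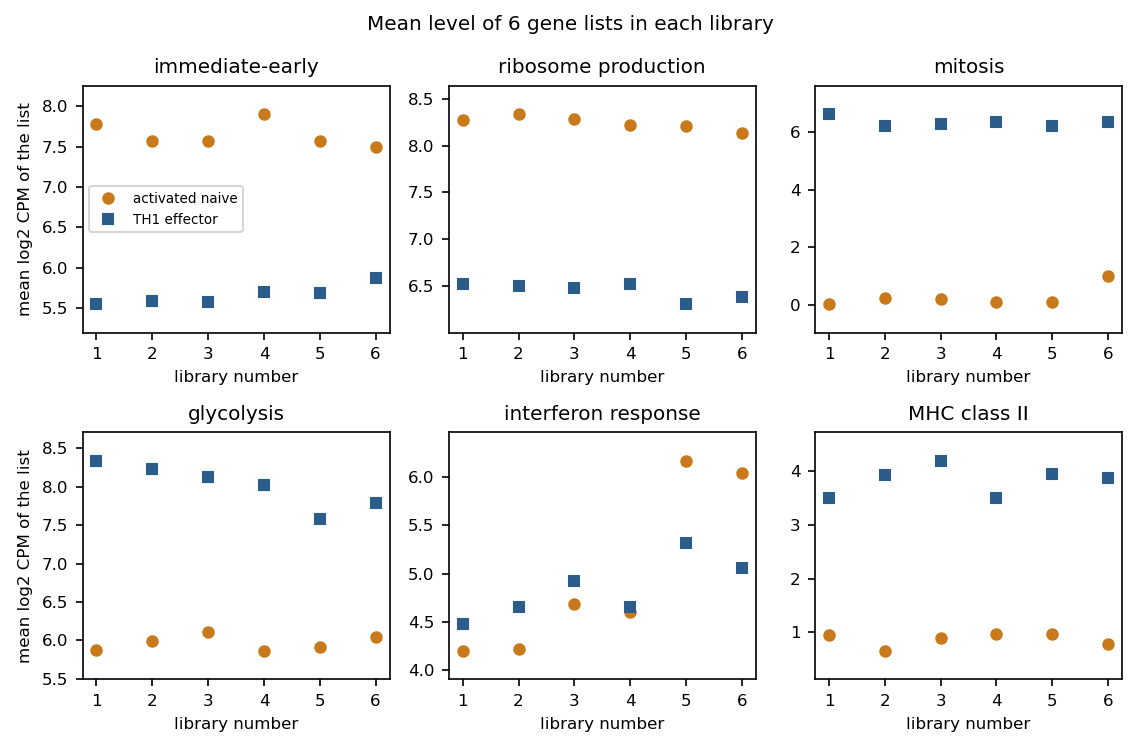
Mean log2 CPM of 6 gene lists in each library, plotted against the library number, with circles for activated naive and squares for TH1 effector libraries. Immediate-early and ribosome production genes are higher in every activated naive library and mitosis, glycolysis and MHC class II genes in every effector library, while the order in the interferon list turns over at numbers 5 and 6.

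Genes of MHC class II presentation were found in both states and were mostly higher in effectors. Of 12 tested, 8 were at least 2-fold higher and 1 lower in effectors (median 2.93). H2-Aa, the alpha chain of I-A, was higher in the activated naive libraries: 27.0, 34.3 and 51.9 against 2.04, 5.69 and 10.6 CPM (log2FC -2.66, SE 0.39, adjusted p = 4.00e-08). H2-Ab1, its beta chain, was higher in effectors, 2.30, 3.04 and 4.13 against 28.1, 56.4 and 79.8 CPM (log2FC 4.08, SE 0.16, adjusted p = 1.97e-16). So was the invariant chain Cd74, 9.996, 11.6 and 13.1 against 20.1, 46.0 and 67.1 CPM (log2FC 1.92, SE 0.28, adjusted p = 1.76e-07). The partner genes H2-Ab1 and Cd74 were singled out after their values were seen. The peptide-loading gene H2-DMb1 had no counts at 6 hours and 4.48, 5.12 and 6.58 CPM in effectors, at least 273-fold higher (adjusted p = 7.85e-17). B cell markers moved with these genes, from a sum of 0.369 to 0.676 CPM over the 9 markers in the files to 5.94 to 32.2 CPM. The marker Ms4a1 went from 2 to 245 counts per group. The sum was highest in effector number 3 (32.2 CPM) and number 2 (17.4 CPM), and the class II list was highest in number 3 too, with a summed level of 349 CPM against 273 to 320.0 CPM in the other effector libraries. Its mean log2 CPM was 4.19 in number 3 and 3.49 to 3.95 in the others. Of the genes described, H2-Ab1 was highest in number 1 (79.8 CPM) and Cd74 in number 5 (67.1 CPM). Macrophage markers summed to 9.26 to 11.8 CPM in activated naive and 4.65 to 6.604 CPM in effector libraries. Csf1r, Fcgr1 and C1qa were at 0 in both groups. Of the 8 macrophage markers with enough counts, however, 5 were at least 2-fold higher and 2 at least 2-fold lower in effectors (median 1.67). The mean log2 CPM of these 8 was -3.94 to -2.52 in activated naive and -2.54 to -1.68 in effector libraries. All 4 B cell markers with enough counts were at least 2-fold higher in effectors, 1 of them, Cd79a, not within numbers 4 to 6. The 8 dendritic cell markers in the files summed to 0.833 to 1.91 CPM in activated naive and 1.51 to 3.60 CPM in effector libraries. Of these markers 2 had enough counts and both passed as higher in effectors, 1 of them at 2-fold or more. The call of Zbtb46, 1 of the 2, did not hold without numbers 5 and 6. The part of B cells, dendritic cells and macrophages in the class II values was not tested.

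**Figure D5:**
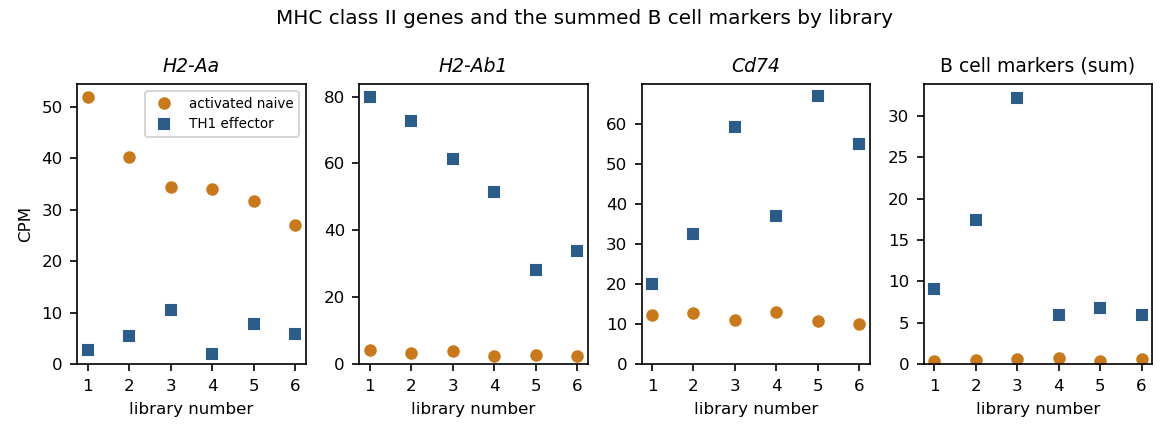
CPM of H2-Aa, H2-Ab1 and Cd74 and the summed CPM of 9 B cell markers (linear axes from 0) against the library number, with circles for activated naive and squares for TH1 effector libraries. H2-Aa is higher in every activated naive library, and the other 3 in every effector library. Among effector libraries the B cell marker sum is highest in number 3, H2-Ab1 in number 1 and Cd74 in number 5.

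Class I presentation was less affected, with 4 of 17 tested genes at least 2-fold higher and 2 at least 2-fold lower (median 0.13). The immunoproteasome subunit Psmb8 rose from 114 ± 11.8 to 548 ± 58.0 CPM (log2FC 2.27, adjusted p = 1.53e-19). Psmb9 rose from 35.1 ± 4.86 to 166.3 ± 13.9 CPM (log2FC 2.25, adjusted p = 2.47e-18), and Psmb10 from 22.8 ± 3.91 to 83.2 ± 10.8 CPM (log2FC 1.87, adjusted p = 9.60e-16). Erap1, which trims peptides, fell from 372 ± 25.2 to 173 ± 33.0 CPM (log2FC -1.12, adjusted p = 1.50e-12). B2m, the light chain of class I, did not pass (adjusted p = 0.129).

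Calcium-binding S100 proteins, annexins and galectins, which mark effector and memory T cells, had the third highest median of the 34 lists. Of 27 tested, 20 were at least 2-fold higher and 0 lower (median 4.16, 4.22 in numbers 1 to 3 and 4.12 in numbers 4 to 6). S100a6 rose from 0, 0.0405 and 0.196 to 71.9, 129 and 203 CPM (log2FC 11.20, 12.09 within numbers 1 to 3, 10.24 within numbers 4 to 6, 12 without number 6, SE 0.64, adjusted p = 9.70e-16). Vim, the intermediate filament vimentin, rose from 1.15, 2.02 and 6.96 to 1575, 2540.5 and 2973 CPM (log2FC 9.86, 10.64 within numbers 1 to 3, 9.17 within numbers 4 to 6, SE 0.41, adjusted p = 4.62e-16). S100a4 rose from 0.0506 ± 0.0598 to 35.9 ± 11.8 CPM (log2FC 9.49, 10.65 within numbers 1 to 3, 8.50 within numbers 4 to 6, 10.11 without number 5, adjusted p = 9.77e-15). Naive libraries already had 152 ± 10.6 CPM of Vim, more than the activated naive ones. Of 36 lysosome genes, 25 passed as higher and 9 as lower, 15 and 1 of them at 2-fold or more (median 0.69). Npc2, a cholesterol carrier, rose from 71.9 ± 6.04 to 581 ± 99.6 CPM (log2FC 3.01, adjusted p = 4.02e-21).

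Genes next to the T cell receptor were changed in both directions. Of 34 tested genes, 11 were at least 2-fold higher and 8 at least 2-fold lower in effectors (median 0.09). Over all tested genes the shares were 30.4% and 18.2% and the median 0.07, so this list as a whole was close to all genes. Ptprc, the phosphatase CD45 that primes LCK, fell from 4912, 5309.8 and 6173 to 1053, 1311 and 1767 CPM (log2FC -2.05, SE 0.08, adjusted p = 1.41e-19). The calcium channel Orai1 fell from 300.3 ± 85.1 to 37.2 ± 4.30 CPM (log2FC -3.01, adjusted p = 2.71e-15). The adaptor Lcp2 (SLP-76) fell from 1652 ± 291 to 324 ± 38.5 CPM (log2FC -2.35, adjusted p = 2.02e-18). Themis, which tunes receptor signals, rose from 13.95, 15.8 and 22.8 to 425, 482 and 538 CPM (log2FC 4.79, SE 0.14, adjusted p = 1.01e-21). The calcineurin subunit Ppp3cc rose from 7.93 ± 0.411 to 139 ± 14.3 CPM (log2FC 4.13, adjusted p = 1.25e-22). Nfatc2, a factor that calcineurin activates, rose from 45.2 ± 5.12 to 245 ± 30.1 CPM (log2FC 2.44, adjusted p = 1.43e-19). Cd4 itself rose from 132 ± 8.75 to 459 ± 21.0 CPM (log2FC 1.798, adjusted p = 2.07e-19), below the naive libraries at 926 ± 52.8 CPM.

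The genes with the largest rises of all had no or almost no counts at 6 hours. Vldlr, a lipoprotein receptor, had 0 counts in the activated naive group and 18.2, 52.6 and 64.9 CPM in effectors, at least 2404-fold higher against the floor of 3 counts over 6 libraries (adjusted p = 2.82e-09). The interleukin 8 receptors Cxcr1 and Cxcr2 were likewise at 0 and reached 26.3, 36.8 and 46.1 and 9.85, 13.9 and 21.8 CPM, at least 1856-fold and 765-fold higher (adjusted p = 7.83e-15 and 1.68e-16). Cxcr2 also served as a neutrophil marker, of which S100a8 and Camp were at 0 in both groups and S100a9 at 0 in effectors. Mmp9, the only other neutrophil marker with enough counts, was also at least 2-fold higher in effectors, with no overlap between the groups. The part of other cells in these values was not tested. The neutrophil marker sum of 10.6 to 30.5 CPM in effectors against 0.0671 to 0.343 CPM at 6 hours was made mostly of Cxcr2. Neil3, a DNA glycosylase of dividing cells, rose from 2 counts to 42.2, 45.0 and 47.8 CPM, a ratio of 3461 (95% counting interval 958 to 28585) with an adjusted p of 1.86e-23. Il24, an interleukin 10 family cytokine, rose from 2 counts, both in number 6, to 28.2, 49.8 and 57.2 CPM, a ratio of 3472 (95% counting interval 961 to 28672) with an adjusted p of 4.23e-15. The fitted log2FC of Il24 was 11.32, 13.41 within numbers 1 to 3, 10.34 within numbers 4 to 6, 13.22 without number 6, and that of Neil3 11.32, 13.41 within numbers 1 to 3, 10.34 within numbers 4 to 6. Among the largest falls was Hivep3, a zinc finger regulator, from 1322, 1821 and 2357 to 5.43, 12.1 and 27.3 CPM (log2FC -7.07, SE 0.37, adjusted p = 2.00e-14). Ramp3, a receptor-modifying membrane protein, fell from 213 ± 14.8 to 1.71 ± 1.22 CPM (log2FC -7.06, -7.89 within numbers 1 to 3, -6.40 within numbers 4 to 6, adjusted p = 2.18e-16). Pou2af1, an octamer co-activator, fell from 270.0 ± 50.8 to 2.63 ± 2.09 CPM (log2FC -6.65, -7.40 within numbers 4 to 6, -7.30 without number 3, adjusted p = 4.11e-15). The naive libraries held 4.34 ± 0.724 CPM of Ramp3 and 9.20 ± 0.872 CPM of Pou2af1, so both were high at 6 hours only among these 3 states.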

How the data were processed

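The deposited files hold raw read counts per gene, 1 file per library, with 23420 gene symbols and 5 summary rows (such as reads in no gene) that stayed out of library sizes and tests. The authors used STAR, HTSeq, DESeq2 and the mm10 build, per the submitters' processing notes; no role, version, annotation or strand setting is given in the sources used here. Libraries were made with a stranded kit, per the labels' protocols. The reporter transgene itself was not analysed here.

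All 24 libraries were fitted with edgeR 4.0.16 (R 4.3.3), with filterByExpr and TMM scaling. The model held the group and the run as read from the file names. The quasi-likelihood test was used with Benjamini-Hochberg adjustment over 12584 genes. All groups share 1 estimate of the spread. CPM are counts scaled to a common library size after TMM. The SE is that of the difference of group means of log2 CPM (0.5 counts added), from the spread within group and run. Intervals of ratios are exact 95% counting intervals and, like the floor of 3 counts, cover counting error only. Counts were also simulated for the 12584 genes, with 1 dispersion of 0.05 for every gene and no run effect. In them 100 genes were changed 2-fold and 100 changed 4-fold, none of them near the floor. Of these 97% and 100% were called, as were 0.0888% of the 12384 unchanged genes. In the data 86.9% of genes passed, so these rates need not hold there. No pair of libraries in a group agreed within sampling noise (chi-square at least 9.45 per degree of freedom).

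Gene lists and members were chosen with earlier results of these data known. Within them the genes named are the 10 largest changes each way among non-overlapping genes of at least 10 CPM, up to 3 rising and 3 falling members per list of at least 5 CPM, up to 2 members per list that moved least, a fixed set of 20 T cell genes, and markers of other cell types; Some genes of these lists are not reported here. H2-Ab1 and Cd74 were added after their values were seen. Alternatives were a replicate block, other scalings and filters, DESeq2 1.42.0, limma-voom (limma 3.58.1), other sets of libraries and a minimum change of 1.5-fold.

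Whether counting used strand is not known, so reads of Bach2, Bad, Bcl3, Ccr9, Cd274, Cdk4, Ctsw, Dnmt3a, Ebi3, Erap1, Foxp3, Grwd1, Ikzf2, Il12rb2, Il21, Il6ra, Irf1, Jun, Junb, Kdm6b, Lcp2, Mxi1, Oasl1, Orai1, Ppp3cc, Psmb8, Psmb9, Ramp3, Rgs16, Scap, Spry1, Themis, Tpi1, Xcl1 and Zeb2 cannot be told apart from those of exons overlapping on the other strand. Ccr9, Cd27, Cd74, Foxp3, Hivep3, Hspa8, Ifng, Igtp, Rtp4, S100a4, Scd2 and Zeb2 overlap another gene on the same strand. Counts of Tpi1, Npm1, Rpl39, Bcl2a1d, the Gbp and Oas families and H2 genes may be split with near-identical copies. Promoter windows and coordinates come from RefSeq on GRCm38.p6, the assembly of mm10.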

Additional observations from a re-analysis of the deposited data

Results flagged for a closer look

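In 394 groups of 6 libraries, over the genes named and the list means, 13 had 1 library whose distance from the nearest other exceeded Dixon's critical share of the whole range. Chance flags about 1 in 20 such groups. Values are log2 CPM with 0.5 counts added, so negative ones stand for 0 to a few counts.

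Foxp3 was lowest in activated naive number 4, at -1.95 log2 CPM against -0.222 to 0.669 in the other 5. Il24 was highest in activated naive number 6, at -3.03 log2 CPM against -5.9 to -5.44 in the other 5. Klrb1c was highest in activated naive number 6, at -3.77 log2 CPM against -5.9 to -5.44 in the other 5. Mki67 was highest in activated naive number 6, at 0.989 log2 CPM against -3.12 to -1.93 in the other 5. Ppp3cc was lowest in activated naive number 2, at 2.83 log2 CPM against 3.01 to 3.04 in the other 5. Spry1 was lowest in activated naive number 1, at 8.73 log2 CPM against 9.11 to 9.22 in the other 5. Tnf was highest in activated naive number 4, at 8.98 log2 CPM against 7.91 to 8.27 in the other 5. Uhrf1 was highest in activated naive number 1, at 3.38 log2 CPM against 2.82 to 2.93 in the other 5. The mean of the mitosis list was highest in activated naive number 6, at 1.02 log2 CPM against 0.0295 to 0.253 in the other 5. Ncr1 was highest in effector number 5, at -3.87 log2 CPM against -6.12 to -5.5 in the other 5. Nfatc2 was highest in effector number 1, at 8.25 log2 CPM against 7.79 to 7.92 in the other 5. Pim2 was highest in effector number 5, at 9.13 log2 CPM against 8.84 to 8.93 in the other 5. Utp20 was highest in effector number 4, at 6.1 log2 CPM against 5.82 to 5.91 in the other 5.

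Number 6 of the activated naive group was thus the highest for the mitosis list and for Mki67, and for Il24 and Klrb1c it held the only counts of the group. The calls for Mki67 and for the mitosis list did not change without it.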

How the results depend on the processing

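The 10932 genes that passed became 10890 with DESeq2's size factors in edgeR, 10872 with scaling by library size alone, 10923 by DESeq2, 10955 by limma-voom and 10504 with the 2 groups alone. With 1 number left out the count was 10664 to 10839, and 6028 to 6173 at 2-fold or more (3777 to 3867 higher, 2247 to 2396 lower). Of the genes that passed, 0 passed in the opposite direction in any of these fits, edgeR, DESeq2 and limma-voom alike. With only genes of at least 10 CPM in a group, 3733 passed at 2-fold or more (2265 higher, 1468 lower), because 9189 genes were then tested, and with a minimum change of 1.5-fold the genes called lower fell to 3201. Scaling by library size alone moved the median of all genes by 0.137 on the log2 scale, and 57.2% of calls were then higher in effectors against 52.5% in the main setting.

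With the replicate number as a block, 10974 genes passed. Libraries of the same number deviated together after group means were removed (correlations of 0.145 to 0.214). After the run was removed too the values were -0.115 to 0.22. Removing these means by itself makes the correlations of unpaired libraries slightly negative, so the values do not show that pairing is absent. The main fit did not pair the libraries, because the labels do not say what the shared number stands for. Of the genes described, Ccr7 lost its call under the block (adjusted p = 0.0685, edgeR). In 5 of 6 numbers a library correlated best with its own number when group means alone were removed. The titles carry the same letter M and number in both groups, so pairing remains possible.

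Of the comparisons of named genes with an alternative, 5016 kept direction and side of the threshold, 99 lost the call and 44 gained one. The median of the citric acid cycle list turned from -0.05 to 0.087 with scaling by library size alone and to 0.026 with genes of at least 10 CPM. Scaling by library size alone also turned Atp5o to 0.13 (adjusted p = 0.0302) and Sdhb to 0.10 (adjusted p = 0.0405, edgeR). Ifi35 turned to 0.39 (adjusted p = 0.00239) within numbers 1 to 3, Cd79a to -0.021 (adjusted p = 0.971) within numbers 4 to 6, and Zbtb46 to -0.019 (adjusted p = 0.94) without numbers 5 and 6. Atp5o, Sdhb and Ifi35 did not pass with all libraries. The cause of these turns was not tested. Of the genes that did not pass, Junb, Irf1, Zeb2, Cdk4 and B2m passed in at least 1 alternative. Of the histone genes, 3 could be tested with at least 10 CPM in a group (median 2.07) and 13 with the 2 groups alone, of which 11 were at least 2-fold higher (median 3.10). For genes with 0 to 3 counts in a group the depth allows only the bounds and counting intervals given.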
